A study of Mus musculus with 6 samples.

Results

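Slc2a2, G6pc2, Ucn3, Hnf4a, Mlxipl, Txnip and Arrdc4 carry glucose into the beta cell, set the first step of its use, mark the mature cell or answer to glucose by transcription. All probe sets that the platform annotation gives to these 7 genes and to no other gene were taken, which made 12 of 45037 probe sets other than array controls, for 7 of the 18193 genes that have a probe set of their own. Of the 12, 9 were brighter on average than the median probe set, at 6.60 (log2), and were tested among 22518, with at least 1 for each gene, and 3 lay below it and are given as values only. Pancreatic islets came from OF1 male mice 10 weeks old, with 3 samples from mice given bisphenol A (BPA), a compound of plastics with oestrogen-like activity, and 3 from mice given the corn oil vehicle. The series' design states 100 µg/kg/day under the skin in injections of 50 µg/kg for 4 days, with vehicle in the same volume (100 µL) and islets taken 16 hours after the last dose. A sample protocol states 2 days at that daily dose, and the names of the BPA sources state 1 nM for 48 hours, so the labels disagree. Samples are called biological replicates, how many mice stand behind each was not given in the labels used here, and p-values then measure the spread between these samples. Each sample was hybridised to 1 Affymetrix 3′ expression array.

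In mouse beta cells glucose enters through GLUT2, the transporter encoded by Slc2a2, and is phosphorylated by glucokinase, while the islet glucose-6-phosphatase encoded by G6pc2 runs the opposite reaction. Sugar phosphates inside the cell activate ChREBP, the factor encoded by Mlxipl, and its relative MondoA, which bind DNA with their partner Mlx and turn on Txnip and Arrdc4. Both targets encode alpha-arrestins that lower glucose uptake, and TXNIP also binds thioredoxin. HNF4A is a nuclear receptor of the beta cell whose loss of function causes a monogenic diabetes, and urocortin 3, the peptide of Ucn3, is released with insulin by mature beta cells and stimulates delta cells.

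The islet origin of the samples showed in the markers of beta cells, whose 5 measured genes averaged 13.30 to 13.37 (log2) in controls and 13.26 to 13.37 after BPA. Exocrine tissue differed more: the mean of 10 acinar cell genes was 14.30, 14.62 and 12.65 in controls 1 to 3, while the BPA arrays had means of 14.77, 14.09 and 13.58. None of the 10 was dim on any array, the lowest value being 11.65 for Pnliprp1 in control replicate 3. The replicate 3 arrays of both groups stood apart from the other 4 on the main axis of variation (55.9% of the variance), at 47.2 and 36.3 against -37.5 to -3.2, so differences are also given without them. The excess of 3′ over 5′ signal in 4 control transcripts, a sign of RNA quality, was 3.26, 3.54 and 3.36 (log2) in controls and 2.86, 3.05 and 3.06 after BPA, without overlap. Fewer cells of a type and less RNA per cell cannot be told apart in such bulk samples.

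None of the 9 tested probe sets passed limma's moderated test of BPA against control (adjusted p 0.699 to 0.951). The Benjamini-Hochberg adjustment ran over all 22518, of which 0% passed. At an unadjusted p under 0.05 there were 2 of the 9, 1 higher (Txnip 1415997_at) and 1 lower (G6pc2). Over all tested probe sets 6.47% reached it (3.84% higher and 2.64% lower). The genes were chosen with earlier results of these data known, and Txnip and Hnf4a count 2 probe sets each. Such shares are a description only. The largest differences were a higher signal on the dimmer tested probe set of Txnip, 1.43 times control, and a lower one for Mlxipl, where controls had 1.36 times the BPA signal. The groups did not overlap for 3 of the 9, higher for Txnip 1415997_at and Ucn3 and lower for G6pc2. Over the table this held for 12.2% (7.83% higher and 4.35% lower). On the brighter Txnip probe set the groups overlapped, and the gap for Ucn3 was only 0.00030. The median difference of the 9 was 0.042 (log2) and that of all tested probe sets 0.011, with 5 of the 9 higher and 4 lower.

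**Figure D1:**
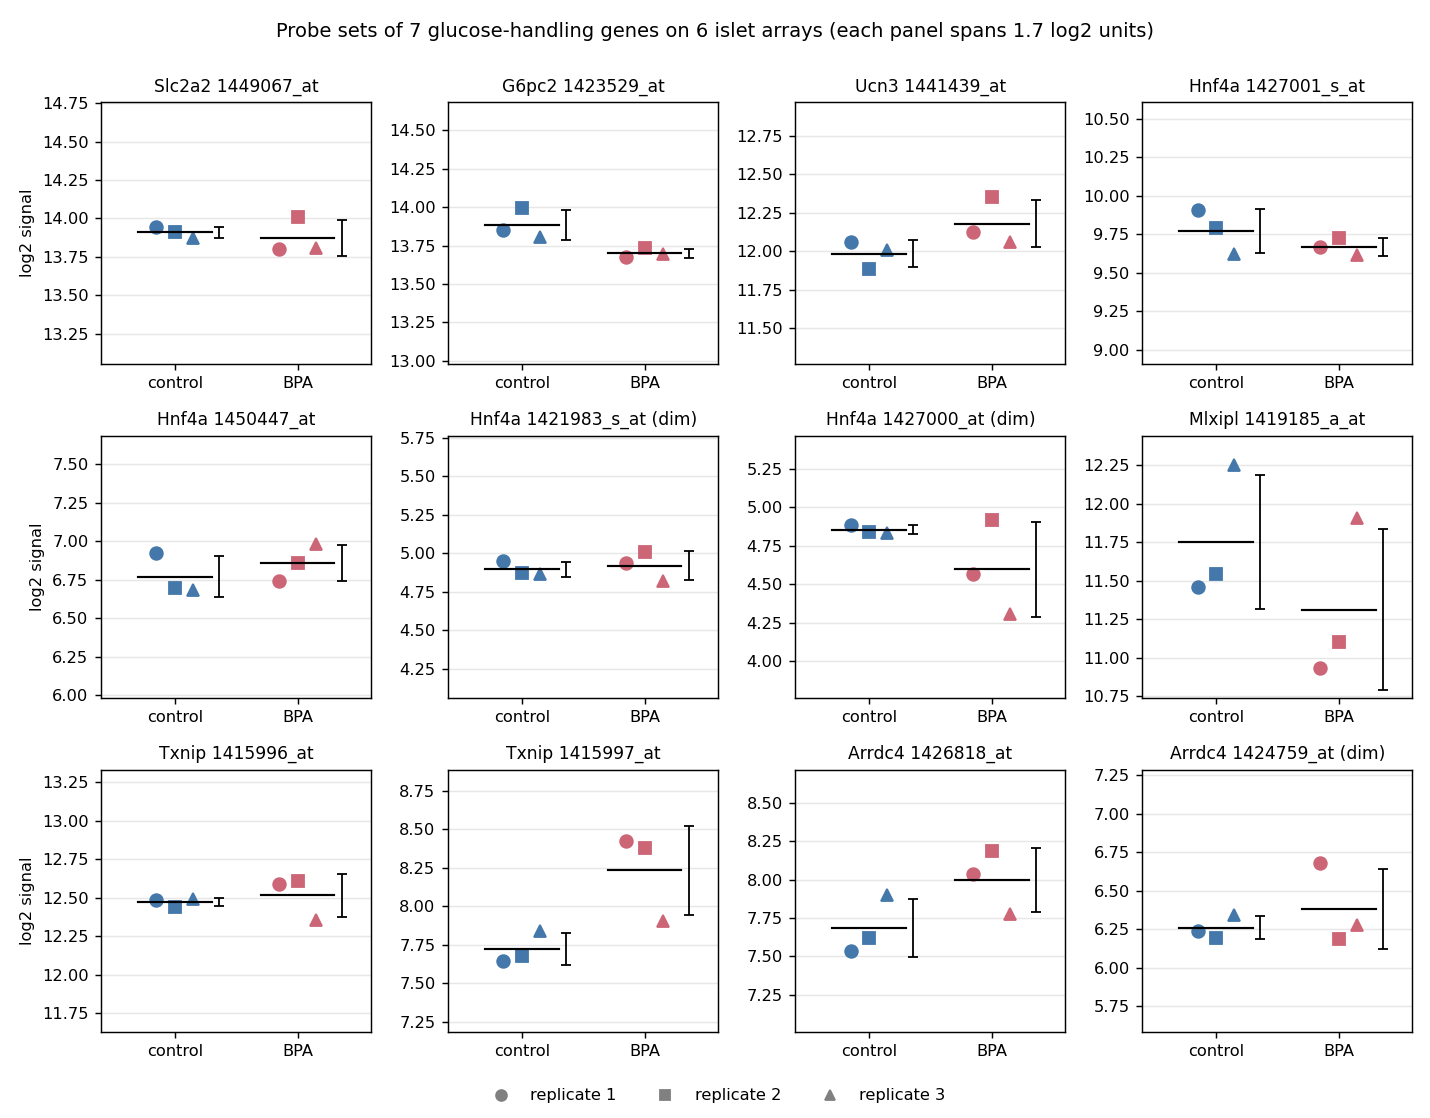
Log2 signal of each of the 12 probe sets on the 6 arrays, with a symbol for each replicate number, a line at the group mean and a bar of 1 SD beside it (n = 3 per group). All panels span the same number of log2 units, so the wide spread of Mlxipl (range 1.32) can be set against the narrow spread of Slc2a2 (range 0.21).

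The glucose transporter gene Slc2a2 had 1 probe set, 1449067_at, which read 13.94, 13.91 and 13.87 (log2) in controls and 13.80, 14.01 and 13.81 after BPA. BPA replicate 2 was the highest of all arrays and the other BPA arrays were the lowest, so the groups overlapped. The difference was -0.037 with a 95% interval of -0.23 to 0.16 (limma, adjusted p = 0.950), and it ran from -0.11 without BPA replicate 2 to -0.0015 without BPA replicate 1. Its range over the 6 arrays, 0.21, was larger than that of 5.43% of the tested probe sets.

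G6pc2, whose product hydrolyses glucose-6-phosphate and so opposes glucokinase, read 13.85, 13.99 and 13.80 (log2) on probe set 1423529_at in controls. After BPA it read 13.67, 13.73 and 13.70, below every control array, with a gap of 0.071 between the groups. The means were 13.88 ± 0.10 in controls and 13.70 ± 0.03 after BPA (SD, n = 3 per group). The difference of -0.18 ± 0.08 (SE, interval -0.36 to -0.0021) did not pass the test (limma, adjusted p = 0.764), and the exact permutation test gave the smallest p possible with 3 against 3, 0.1 (two-sided). Without both replicate 3 arrays the difference was -0.22 (adjusted p = 0.431), and fitted beside the 3′ over 5′ excess as a covariate it was -0.012 ± 0.167 (SE).

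Ucn3, the gene of urocortin 3, read 12.06, 11.89 and 12.01 (log2) in controls and 12.12, 12.35 and 12.06 after BPA on its 1 probe set, 1441439_at. Its lowest BPA array lay only 0.00030 above its highest control array, so the lack of overlap rested on a gap far smaller than the spread within either group (SD 0.09 and 0.15). BPA replicate 2 alone was clearly higher than the rest. The difference was 0.19 ± 0.11 (SE), with an interval of -0.07 to 0.45 (limma, adjusted p = 0.832), and 0.26 without the replicate 3 arrays (adjusted p = 0.472). It was 0.11 without BPA replicate 2 and 0.091 ± 0.259 (SE) beside the 3′ over 5′ excess as a covariate.

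Hnf4a had 4 probe sets, of which 2 were tested, and they did not share a direction. On 1427001_s_at controls read 9.90, 9.79 and 9.62 (log2) and BPA arrays 9.67, 9.73 and 9.61. Both replicate 3 arrays were the lowest on this probe set, and the difference was -0.10 ± 0.12 (SE, interval -0.38 to 0.18). On 1450447_at controls read 6.92, 6.70 and 6.69 and BPA arrays 6.74, 6.86 and 6.98, a difference of 0.091 ± 0.122 (SE, interval -0.20 to 0.38). The groups overlapped on both, with adjusted p of 0.900 and 0.915 (limma), and the second turned to -0.011 without the replicate 3 arrays. Single arrays moved both by over 1.5 times. The difference on 1427001_s_at was -0.037 without control replicate 1 and -0.18 without control replicate 3, and beside the 3′ over 5′ excess -0.17 ± 0.28 (SE). On 1450447_at it was 0.031 without BPA replicate 3, 0.050 without control replicate 3, 0.055 without control replicate 2, 0.15 without BPA replicate 1 and 0.17 without control replicate 1. The dim probe sets were 1421983_s_at, at 4.90 ± 0.05 in controls and 4.92 ± 0.10 after BPA, and 1427000_at, at 4.85 ± 0.03 and 4.60 ± 0.31 (SD, n = 3 per group). Only the last varied widely, with 4.31 in BPA replicate 3 and 4.92 in BPA replicate 2. In the Affymetrix names, a suffix of _s_at marks probes shared by several transcripts, which need not come from 1 gene. RefSeq gives Hnf4a starts 40298 bases apart in GRCm38.p6, and which of its transcripts each probe set reads is not stated in the table used here.

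Mlxipl, the gene of ChREBP, varied most of the 7. Its probe set 1419185_a_at read 11.46, 11.54 and 12.25 (log2) in control replicates 1 to 3 and 10.93, 11.10 and 11.90 in BPA replicates 1 to 3. Both replicate 3 arrays were higher than the other 4, by 0.82 on average, and the groups overlapped because BPA replicate 3 exceeded control replicates 1 and 2. Its range of 1.32 was larger than that of 92.1% of the tested probe sets. The difference between the groups was -0.44 ± 0.31 (SE, interval -1.18 to 0.30; limma, adjusted p = 0.850; two-sided exact permutation p = 0.4).

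Without both replicate 3 arrays the difference of Mlxipl was -0.49 ± 0.13 (SE), no BPA array then reached a control array, and the test was still not passed (limma, adjusted p = 0.221). With each single array left out it ran from -0.73, without BPA replicate 3, to -0.19, without control replicate 3. The replicate 3 arrays also had the lowest acinar means of their groups, -1.35 and -0.42 relative to the mean of all 6 arrays, against 0.08 to 0.77 on the other 4. With that acinar mean as a covariate the difference was -0.29 ± 0.17 (SE, adjusted p = 0.668). Beside the 3′ over 5′ excess as a covariate it was 0.014 ± 0.693 (SE), and that excess itself separates the groups. What part acinar tissue or RNA quality had in the values of Mlxipl was not tested beyond these fits.

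**Figure D2:**
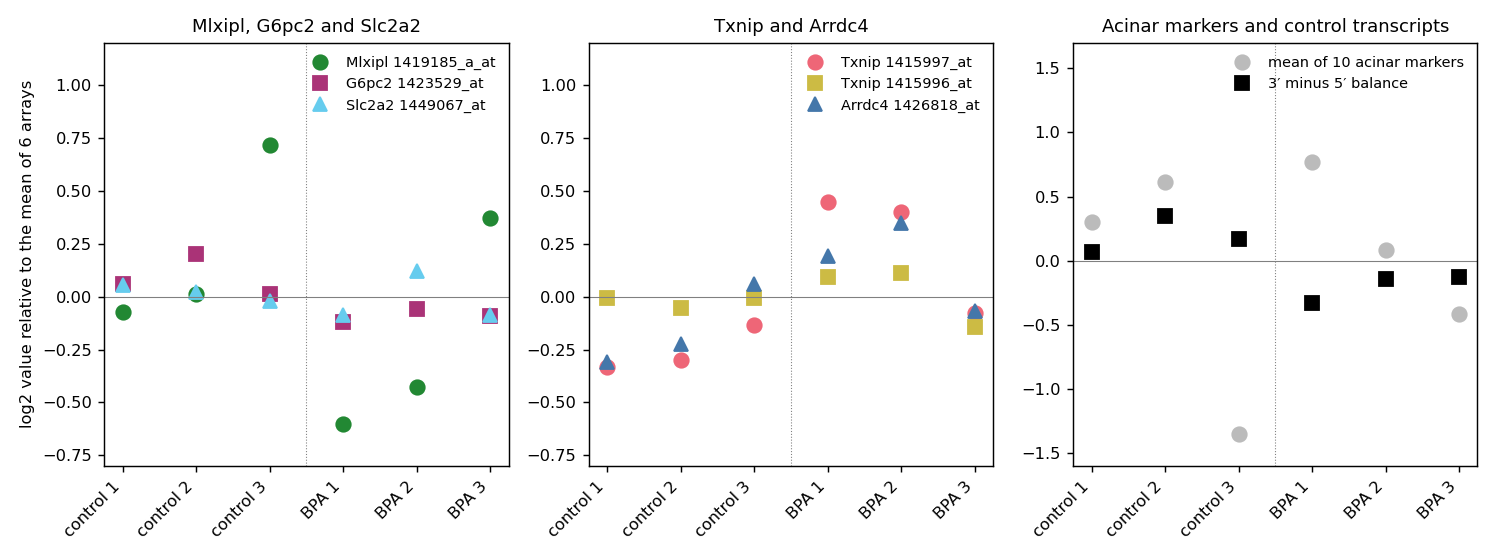
Log2 values on each array relative to the mean of the 6 arrays, for Mlxipl, G6pc2 and Slc2a2 (left), for Txnip and Arrdc4 (middle), and for the mean of 10 acinar markers and the 3′ over 5′ excess in control transcripts (right, labelled as balance). Mlxipl is highest on the replicate 3 arrays of both groups, where the acinar mean is lowest within each group, and Txnip 1415997_at and Arrdc4 are highest on BPA replicates 1 and 2.

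Upstream sequence is shown for Txnip, Arrdc4 and the first of the Mlxipl starts, because carbohydrate response elements are built from paired E-box-like letters. Txnip 1415997_at and Arrdc4 1426818_at were highest on BPA replicates 1 and 2. So was Ucn3, whose promoter held no match to any motif named below. The dim Arrdc4 probe set did not share this, being lowest on BPA replicate 2. All 7 genes had an entry in the RefSeq promoter table (GRCm38.p6, 250 bases before to 50 after each start, 10 promoters in all). Both strands were searched. Capitals mark CACGTG, the E-box, in Arrdc4 and Mlxipl, and in Txnip CACGNG followed after 5 bases by another CACGNG, and each stretch of 120 bases runs 5′ to 3′ on the strand of the gene.
Txnip, chr3:96557837-96557956 (plus strand): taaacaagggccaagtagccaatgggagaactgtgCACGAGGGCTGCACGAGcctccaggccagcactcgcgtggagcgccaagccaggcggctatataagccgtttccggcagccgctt
Arrdc4, chr7:68749369-68749488 (minus strand): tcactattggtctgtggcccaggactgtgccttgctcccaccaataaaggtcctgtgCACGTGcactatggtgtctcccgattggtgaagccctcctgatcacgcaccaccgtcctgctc
Mlxipl, chr5:135089770-135089889 (plus strand): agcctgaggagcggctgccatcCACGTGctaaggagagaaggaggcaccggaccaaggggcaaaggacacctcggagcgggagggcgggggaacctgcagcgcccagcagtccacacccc

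The pair in the Txnip promoter, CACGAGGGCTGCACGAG, lies at -85 to -69 from the start, and it has the form described for the glucose response element of this gene. Letters of that form occurred in 0.0487% of the 32851 promoters of the table. The E-box lies at -193 to -188 from the Arrdc4 start and at -98 to -93 from the Mlxipl start, and 7.15% of promoters hold one. The other Mlxipl start, 17001 bases downstream, held no E-box in its window. CCAAT, the letters bound by NF-Y, occurred 6 times on either strand of the Arrdc4 promoter and 2 times each in those of Txnip and Slc2a2. Both Hnf4a windows and the first Mlxipl window held 1 each, while 37.4% of promoters hold at least 1. A relaxed carbohydrate response element (CANGNG and, 5 bases on, CNCNTG, found in 0.557% of promoters) and an HNF4 motif (CAAAGTCCA, 0.475%) had no match in any of the 10 windows. The pair and CCAAT were added to the search after the sequences had been read, and a match describes letters, not binding.

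Txnip had 2 tested probe sets, and they differed in how far the groups lay apart. On 1415997_at controls read 7.65, 7.68 and 7.84 (log2) and BPA arrays 8.42, 8.38 and 7.90. BPA replicates 1 and 2 stood well above all controls, while BPA replicate 3 lay 0.060 above the highest control. The means were 7.72 ± 0.10 and 8.23 ± 0.29 (SD, n = 3 per group), a difference of 0.51 ± 0.17 (SE, interval 0.11 to 0.91) that did not pass the test (limma, adjusted p = 0.699). Without the replicate 3 arrays it was 0.74 ± 0.13 (SE, adjusted p = 0.181), and beside the 3′ over 5′ excess as a covariate 0.26 ± 0.38 (SE).

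On the brighter Txnip probe set, 1415996_at, controls read 12.49, 12.44 and 12.49 (log2) and BPA arrays 12.59, 12.61 and 12.35. BPA replicate 3 was the lowest of all arrays and the other BPA arrays the highest, so the groups overlapped. The difference was 0.042 ± 0.096 (SE, interval -0.19 to 0.27; limma, adjusted p = 0.951). It was 0.12 without BPA replicate 3, 0.027 without control replicate 2, 0.0063 without BPA replicate 1 and -0.0029 without BPA replicate 2. Taking 1 probe set minus the other on each array, and the mean of the 6 arrays as 0, the dimmer one gained 0.35, 0.29 and 0.07 on BPA replicates 1 to 3 and stood at -0.32, -0.25 and -0.13 on controls. The groups did not overlap in this contrast of the Txnip probe sets and differed by 0.47 (two-sided exact permutation p = 0.1). With 3 against 3 samples that p cannot fall below 0.1, so it cannot decide whether the probe sets changed unequally. A test between probe sets of the same gene was not planned. Both Txnip probe sets are annotated to the same cDNA, so the annotation does not tell their transcripts apart.

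Arrdc4, the other alpha-arrestin gene, read 7.53, 7.62 and 7.90 (log2) in controls on probe set 1426818_at and 8.03, 8.19 and 7.77 after BPA. BPA replicates 1 and 2 were above every control, while BPA replicate 3 was below control replicate 3. The difference was 0.31 ± 0.16 (SE, interval -0.07 to 0.69; limma, adjusted p = 0.798), or 0.53 ± 0.14 (SE, adjusted p = 0.218) without the replicate 3 arrays. Its profile over the 6 arrays differed from that of Txnip 1415997_at by a root-mean-square of 0.136 (log2), after each was centred on its mean. From that of Ucn3 it differed by 0.147. Other pairs among the tested probe sets lay closer, such as Slc2a2 and Hnf4a 1427001_s_at (0.082). The dim Arrdc4 probe set 1424759_at read 6.24, 6.19 and 6.34 in controls and 6.68, 6.19 and 6.28 after BPA. Only BPA replicate 1 was raised there and BPA replicate 2 was not.

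**Figure D3:**
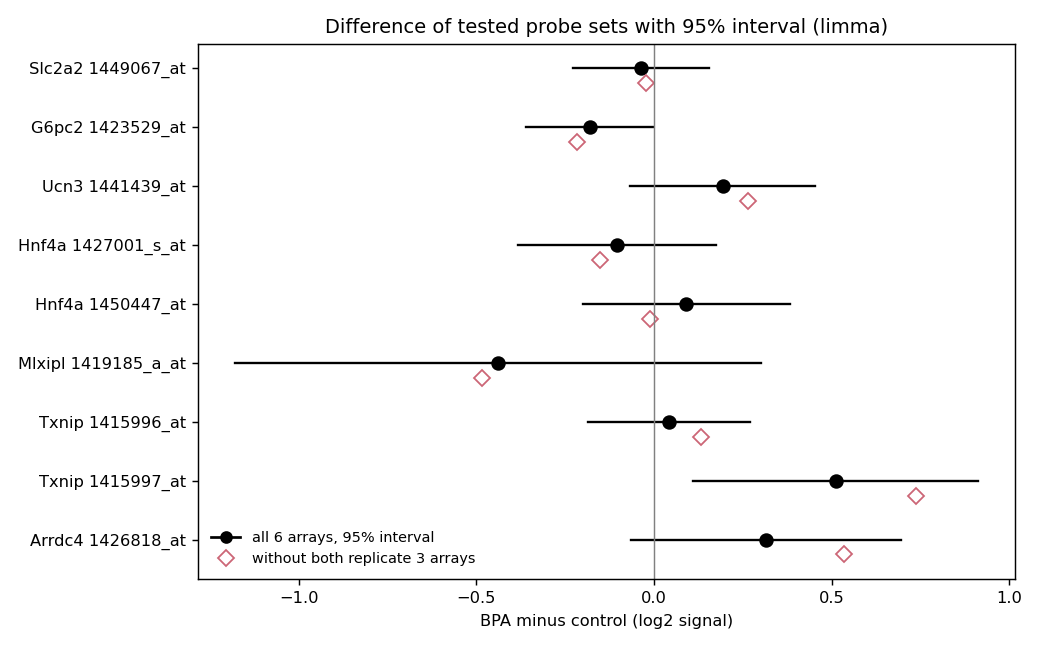
BPA minus control (log2) for the 9 tested probe sets, with the limma estimate and its 95% interval over all 6 arrays (filled) and the estimate without both replicate 3 arrays (open). The interval of Txnip 1415997_at runs from 0.11 to 0.91 and that of Mlxipl from -1.18 to 0.30; no probe set passed after adjustment.

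Other genes of the same pathways were followed through lists, with each gene represented by its brightest tested probe set. No gene of any list passed limma's test after adjustment, and 0 of 11787 genes did, with 57.7% of all genes higher and 42.3% lower after BPA and a median difference of 0.028 (log2). Unadjusted, 5.34% of these genes had a p under 0.05. The 7 lists held few such genes: 1 higher and 1 lower among hexokinases and phosphatases, 2 higher among ChREBP targets, 1 lower among maturity genes and 0 in the other 4. The lower gene was G6pc2 in both lists, so it is counted in each.

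Among 12 tested genes of the Slc2a and Slc5a transporter families, listed here as glucose transporters, 7 were higher and 5 lower (median 0.031, log2). Not all of these genes are chiefly transporters of glucose. Without control replicate 3 that median was -0.031 and without BPA replicate 2 -0.012. Slc2a1, the gene of GLUT1, read 9.31, 8.88 and 8.98 in controls and 9.67, 9.49 and 9.01 after BPA, a difference of 0.33 ± 0.21 (SE, limma adjusted p = 0.833). Its 2 other tested probe sets differed by 0.43 and 0.50, also upward and also without passing. Slc5a1, the sodium-coupled transporter SGLT1, differed by -0.87 ± 0.53 (SE, adjusted p = 0.833), where control replicate 3 read 8.67 and the other 5 arrays read 6.28 to 6.71.

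In the list of hexokinases and the glucose-6-phosphatase cycle 8 of 9 genes were higher, with a median of 0.12 (log2), and G6pc2 was the only one lower. Hk3, a hexokinase gene of blood cells, read 8.08 ± 0.11 in controls and 8.37 ± 0.09 after BPA (SD, n = 3 per group), without overlap, a difference of 0.29 ± 0.12 (SE, limma adjusted p = 0.748). A further Hk3 probe set, with overlapping groups, differed by 0.19. Immune cell markers, 7 measured, averaged 9.17 to 9.54 in controls and 9.24 to 10.07 after BPA, with the highest mean on BPA replicate 1. Hk3 was highest on BPA replicate 2 (8.47), where the immune mean was 9.24, and read 8.29 on BPA replicate 1. The part of immune cells in Hk3 was not tested. G6pc3, the phosphatase gene of most tissues, differed by 0.42 ± 0.21 (SE, adjusted p = 0.798), with overlap between groups, and was picked out after its values were seen.

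The list of ChREBP, MondoA, their partners and glucose-responsive targets had 27 tested genes, 16 higher and 11 lower (median 0.047, log2). Khk, the gene of ketohexokinase, read 8.59, 8.81 and 8.81 in controls and 9.17, 8.96 and 9.14 after BPA, a difference of 0.35 ± 0.12 (SE, limma adjusted p = 0.731). Acaca, which encodes the carboxylase that makes malonyl-CoA, differed by 0.26 ± 0.11 (SE, adjusted p = 0.768), also without overlap. Of the alpha-arrestin and thioredoxin genes 9 of 13 were higher (median 0.042), with the mitochondrial thioredoxin reductase gene Txnrd2 at 0.26 ± 0.12 (SE, adjusted p = 0.791) and Arrdc4 as the genes of smallest p. The 3 other probe sets of Txnrd2 differed by 0.14 to 0.25.

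Of 10 tested genes of the HNF network 4 were higher and 6 lower (median -0.053, log2). That median was 0.045 without BPA replicate 3, 0.024 without control replicate 1 and 0.0078 without control replicate 2. Cltrn, also called collectrin, was lower on all BPA arrays by -0.12 ± 0.07 (SE, limma adjusted p = 0.832), and Pcbd1, which encodes a dehydratase of pterin metabolism, differed by 0.12 ± 0.09 (SE, adjusted p = 0.862). In the urocortin and CRF family 2 of 7 genes were bright enough to test, Ucn3 and the receptor gene Crhr1. Crhr1 differed by 0.40 ± 0.19 (SE, adjusted p = 0.796) on its brightest probe set and by 0.37 on the other, where the groups did not overlap. Among 20 beta cell maturity genes 7 were higher and 13 lower (median -0.041), with G6pc2 and Pdx1 the genes of smallest p, both lower on all BPA arrays on the probe sets used. The other tested Pdx1 probe set differed by -0.043, with overlapping groups. Without BPA replicate 1 the median of the maturity genes was 0.0092.

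**Figure D4:**
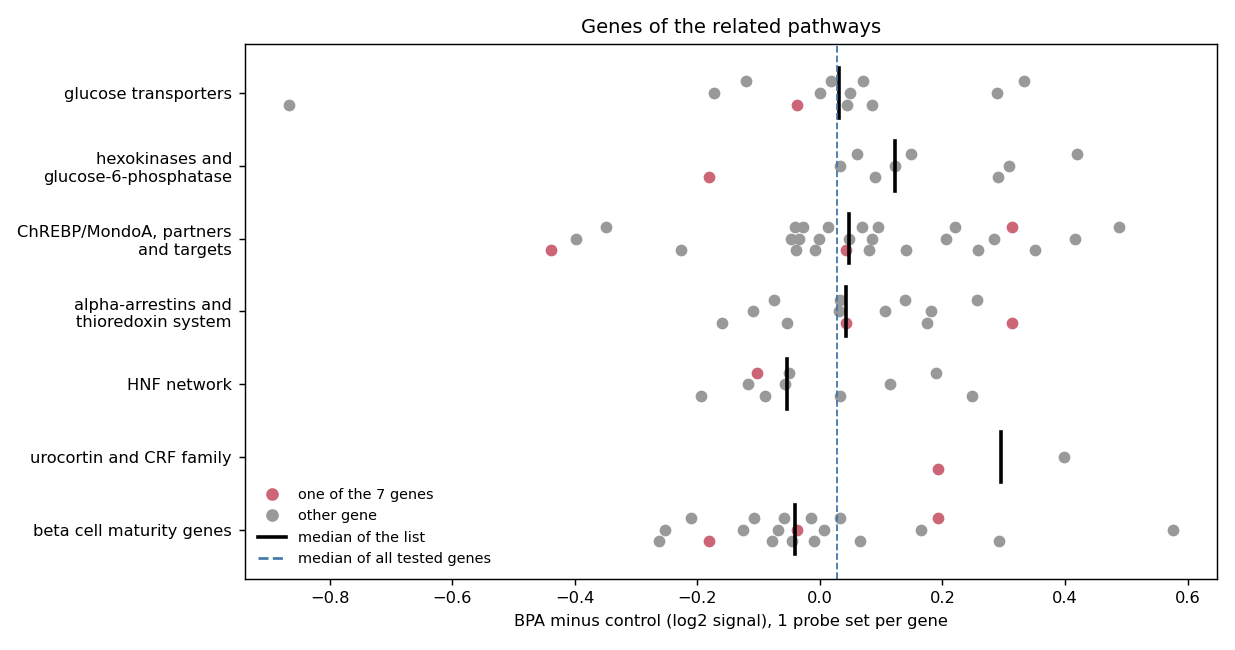
BPA minus control (log2) for each tested gene of 7 lists, 1 probe set per gene, with the 7 genes in red where they belong to a list, the list median as a black bar and the median of all tested genes (0.028) as a dashed line. Points are spread vertically for legibility only; Mlxipl, at -0.44, is the lowest of the ChREBP list, and Arrdc4, at 0.31, the highest of the alpha-arrestin list.

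Genes with the array pattern most like each of the 7 were sought among 11787 genes by the root-mean-square difference of centred log2 values over the 6 arrays. Mlxipl was matched most closely by Dcun1d1 (0.071), Paxbp1 (0.072) and Tmem242 (0.084), and only 7 genes came within 0.1 of it. These 3 were also highest on both replicate 3 arrays. Arrdc4 was matched by Desi1 (0.059), Fam171a1 (0.065) and Hdac4 (0.067), with 50 genes within 0.1. The flat profiles had many close matches. Slc2a2 had 1568 genes within 0.1, led by Hoxd9, Ppp1r1b and Map2k4 (0.023 to 0.024), and Txnip on its brighter probe set had 1369, led by Snx25 (0.017), Txlnb (0.026) and Alox12 (0.028). Hnf4a had 952, led by Cd163l1 (0.015), Calb1 (0.020) and Kat6a (0.021). G6pc2 had 525, led by Zfp189 and Dmgdh (0.040 each) and Dzip3 (0.043), and Ucn3 had 462, led by Skap1 (0.029), B230217C12Rik (0.031) and Mief1 (0.037). With 6 arrays such closeness is a description only.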

How the data were processed

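Islet RNA from 3 control and 3 BPA samples was labelled with biotin from 1 µg of total RNA and hybridised to 1 Affymetrix array each, per the labels. The authors deposited log2 signals, 1 per probe set and array. Per the submitters' processing notes the tool was MAS5, with no version. The way probes were summarised and scaled was not stated in the labels used here; the lowest value per array, 2.95 to 3.04, is unlike plain MAS5 signals, which limits what dim probe sets show. Array medians were 6.55 to 6.65, and the values were used as deposited, without detection calls. Precision is limited by the number of arrays.

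The table holds 45101 probe sets, of which 64 array controls were left out. Genes came from the platform annotation (34945 probe sets with 1 gene, 932 with several, 9160 with none), and 34741 were matched to RefSeq by gene ID. Groups and replicate numbers came from sample titles. Probe sets with a mean above the median were fitted with limma 3.58.1 in R 4.3.3 (lmFit, then eBayes with an intensity trend). The adjustment was Benjamini-Hochberg, with a threshold of 0.05. The fit was also run on simulated data with independent noise for each probe set and array. Such data lack the shared variation that set the replicate 3 arrays apart. Alternatives were other scalings, filters, moderation, the replicate block, arrays left out and covariates. Named were all probe sets of the 7 genes, the 2 list genes of smallest p where none passed, and the 3 closest patterns; G6pc3 and Ddit4 were added after their values were seen. Members and lists were chosen with earlier results of these data known. The labels do not state whether the same replicate numbers pair the samples. Deviations from group means correlated at 0.476, 0.078 and 0.706 for the 3 pairs. By the rule used each had to exceed 0.1, so the number entered as a block only among the alternatives. Whether the samples were paired is not known. Figures were drawn with matplotlib 3.10.9.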

Additional observations from a re-analysis of the deposited data

How the results depend on the processing

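No probe set of the 7 genes, no list gene and no probe set of the whole table passed under any of 17 alternatives. Of 150 values of the tested probe sets under the alternatives that kept them, 144 kept their direction and 6 turned, all far within their errors: Slc2a2 1449067_at to 0.00018 (log2) under cyclic loess, Txnip 1415996_at to -0.0029 without BPA replicate 2 (-0.0029 to 0.12 with 1 array left out), Hnf4a 1450447_at to -0.011 without both replicate 3 arrays, and Slc2a2, Mlxipl and Txnip 1415996_at to 0.018, 0.014 and -0.098 beside the 3′ over 5′ excess as a covariate. The cause was not tested. The filter at the 75th percentile left out Hnf4a 1450447_at, Txnip 1415997_at and Arrdc4 1426818_at. With the replicate number as a block no call changed: Mlxipl was -0.44 ± 0.09 (SE, limma adjusted p = 0.211) and Txnip 1415997_at had an adjusted p of 0.306. Not every array correlated best with its own number. Probe sets at an unadjusted p under 0.05 numbered 1458, and 2643 without the filter on dim signal, 789 with the filter at the 75th percentile, 3042 with the block, 3060 without both replicate 3 arrays and 444 beside the 3′ over 5′ excess; with 1 array left out they ran from 936 to 3162. Of the 7 list medians 3 changed sign. With 1 array left out, they ran from -0.031 to 0.056 for glucose transporters, -0.12 to 0.045 for the HNF network, -0.055 to 0.0092 for maturity genes, 0.064 to 0.20 for hexokinases and phosphatases, 0.037 to 0.088 for ChREBP targets, 0.051 to 0.12 for alpha-arrestins and 0.22 to 0.41 for the urocortin family. Beside the 3′ over 5′ excess the HNF network had a median of -0.19 and the maturity genes 0.029, and glucose transporters fell below 0 beside the acinar mean (-0.0041) and without both replicate 3 arrays (-0.0027).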

Other observations

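Ddit4, a stress-induced gene on the alpha-arrestin list, was picked out after its values were seen. It read 11.80, 11.85 and 9.94 (log2) in control replicates 1 to 3 and 11.88, 11.54 and 10.01 in BPA replicates 1 to 3, so both replicate 3 arrays lay far below the other 4, the opposite of Mlxipl. Its difference between groups was -0.053 ± 0.660 (SE, limma adjusted p = 0.995).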
